A study of Mus musculus with 70 samples.

Results

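Of the 24346 genes listed in the dorsal hippocampus RNA-seq table, 8 are factors proposed elsewhere to carry the benefit of exercise to the hippocampus: *Fndc5*, *Ppargc1a*, *Esrra*, *Ctsb*, *Igf1*, *Igf1r*, *Vgf* and *Fgf2*. They were taken by symbol, as a list chosen with earlier results of these data known but with no measured value in its rule. All 8 averaged at least 1 FPKM (fragments counted on a transcript, scaled to its length and to the size of the library) and were tested among 12994 genes that did. *Ctsb* was the one member called against sedentary mice by limma at an unadjusted p under 0.05, in 14-0-0 (adjusted p = 0.342). There 9.15% of all genes tested were called. By the same test the other 7 members were called in none of the 6 comparisons with sedentary.

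All libraries came from adult male C57BL/6J mice, with 10 libraries in each of 7 groups and 5 of every 10 from each of 2 harvest cohorts. Groups are named by days of initial wheel running, days without a wheel and days of renewed running. They were 0-0-2, 14-14-0, 14-0-0, 14-7-2 and 14-7-0, beside sedentary mice that had no wheel (0-0-0) and home cage mice that had neither wheel nor training. All but the home cage mice had a 3-min acquisition in the object location memory (OLM) task, which is subthreshold for long-term memory in sedentary mice, 1 h before tissue collection, and wheels had been taken out the night before.

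*Fndc5* codes for the membrane precursor of irisin, a hormone-like fragment that contracting muscle releases. *Ppargc1a* codes for PGC-1α, a coactivator that turns on mitochondrial genes with the nuclear receptor ERRα, the product of *Esrra*, and this pair drives *Fndc5* in muscle. Cathepsin B (*Ctsb*) is a lysosomal cysteine protease that muscle can also secrete, and IGF-1 (*Igf1*) is a circulating growth factor that acts through the receptor kinase coded by *Igf1r*. *Vgf* codes for a secreted peptide precursor that neurons induce with activity and neurotrophins, and *Fgf2* for a basic fibroblast growth factor made mostly by astrocytes. These routes run largely through muscle, liver and blood, whereas the libraries hold only the RNA of dorsal hippocampus.

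The genes lie on 7 chromosomes of mm10 (GRCm38), the build in the labels, as RefSeq annotates them. *Fndc5* spans chr4:129136870-129144593 (plus strand), *Ppargc1a* chr5:51454249-52115853 (minus), *Esrra* chr19:6910977-6922048 (minus) and *Ctsb* chr14:63122462-63145923 (plus). *Igf1* spans chr10:87858265-87937047, *Igf1r* chr7:67952257-68233668, *Vgf* chr5:137025301-137033351 and *Fgf2* chr3:37348477-37410106, all on the plus strand. Exons of 3 members overlap exons of an opposite-strand gene, *Ctsb* with *Fdft1* over 774 bases, *Fgf2* with *Nudt6* over 640 bases and *Esrra* with *Trmt112* over 73 bases. The *Esrra* exons also share 91 bases with *Mir6990*, and those of *Fgf2* 255 bases with *Gm43439*, each on the same strand. The library kit named does not mark strand, so reads from the shared stretches cannot be assigned to a gene.

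*Ppargc1a* and *Esrra* code for partners of one transcriptional complex, and their upstream sequences are shown. The base composition of *Esrra* that recurs in the results is that of its transcripts, not of its upstream sequence. The RefSeq windows of 250 bases before the start that the table uses for each gene (GRCm38.p6, 5′ to 3′ on the strand of the gene) are chr5:51567726-51567975 for *Ppargc1a* and chr19:6921809-6922058 for *Esrra*. The *Ppargc1a* window lies well inside the span given above, so it precedes an internal start of that gene. Capitals mark the core of a cAMP response element (CGTCA) in the *Ppargc1a* window and boxes of the SP1 type (GGGCGG, read here on the opposite strand) in the *Esrra* window.
Ppargc1a: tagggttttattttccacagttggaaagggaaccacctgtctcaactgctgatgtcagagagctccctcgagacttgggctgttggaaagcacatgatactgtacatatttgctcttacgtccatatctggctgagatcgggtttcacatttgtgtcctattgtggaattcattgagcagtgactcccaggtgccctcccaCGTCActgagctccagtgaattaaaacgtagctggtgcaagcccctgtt
Esrra: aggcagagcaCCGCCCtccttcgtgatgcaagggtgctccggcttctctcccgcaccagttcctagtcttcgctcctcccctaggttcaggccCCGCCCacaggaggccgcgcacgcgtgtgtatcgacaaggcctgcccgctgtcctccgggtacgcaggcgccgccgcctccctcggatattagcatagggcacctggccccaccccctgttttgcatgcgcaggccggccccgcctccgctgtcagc
The *Ppargc1a* window is 48% G and C and the *Esrra* window 68.4%, against a median of 52.4% over 32851 mouse windows of this length. The core occurs on either strand in 17.8% of those windows and GGGCGG in 32.7%, so neither match is rare. The nuclear receptor element AAGGTCA, present in 4.08% of windows, occurs once in the window of *Igf1r* and in none of *Fndc5*, *Ppargc1a*, *Esrra*, *Igf1* and *Fgf2*. The full response element TGACGTCA (1.55% of windows) and the E-box CACGTG (6.02%) occur in none of these 6 windows. The windows of *Igf1* and *Fgf2* lie wholly within annotated exons (250 of 250 bases each). Sequence before other starts of these genes was not searched.

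The summed FPKM per library lay between 382574 and 469206, and the table gives no read counts. Read totals in the study's supplement stand under sequencing names that the labels used here do not tie to these libraries, so the depth behind each value is not given. All 9 markers of hippocampal excitatory neurons averaged at least 1 FPKM. A pair of libraries stood apart. In sedentary replicate 6, *Neurod6*, a gene of hippocampal excitatory neurons, measured 2.447 FPKM against 78.37 to 269.2 in the other libraries, and 14-7-0 replicate 4 listed 10279 genes at 0 against 6243 to 7199 elsewhere. Sedentary replicate 6 held the lowest or highest sedentary value of 7 of the 8 members, *Ctsb* being the exception. It also had the highest marker sums of its group for thalamus (205 FPKM, group median 31.6) and oligodendrocytes (6950 FPKM, group median 3110). This library is part of the reference group of all 6 comparisons with sedentary. Choroid plexus markers also differed in amount between libraries, and the summed FPKM of 12 such genes ran from 20.28 to 370.1 in sedentary (median 84.12) and from 32.08 to 16140 in 14-0-0 (median 2301). In bulk tissue, fewer cells of a type and less RNA per cell cannot be told apart.

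On the FPKM scale, which is per length, the mean levels of the members ran from 1.23 to 130 FPKM. *Ctsb* was the most abundant, at 130 ± 10.2 FPKM (SD, n = 70), and lay at the 95.67th percentile of the genes tested. *Fndc5* (46.8 ± 6.04) and *Vgf* (41.3 ± 19.96) were next, then *Esrra* (15.5 ± 5.58), *Ppargc1a* (7.76 ± 0.889) and *Igf1r* (6.91 ± 1.04). The growth factors themselves were near the lower limit of the test, with *Igf1* at 1.495 ± 0.271 FPKM and *Fgf2* at 1.23 ± 0.66. The members differed as much in how evenly they were expressed within a group, with a median coefficient of variation of 6.76% for *Ctsb* and 9.61% for *Ppargc1a*, but 35.2% for *Fgf2*, 36.3% for *Esrra* and 43.0% for *Vgf*. When the 7 groups were ordered by mean, no gap between neighbours exceeded the larger of their SDs for any of the 8 genes.

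**Figure D1:**
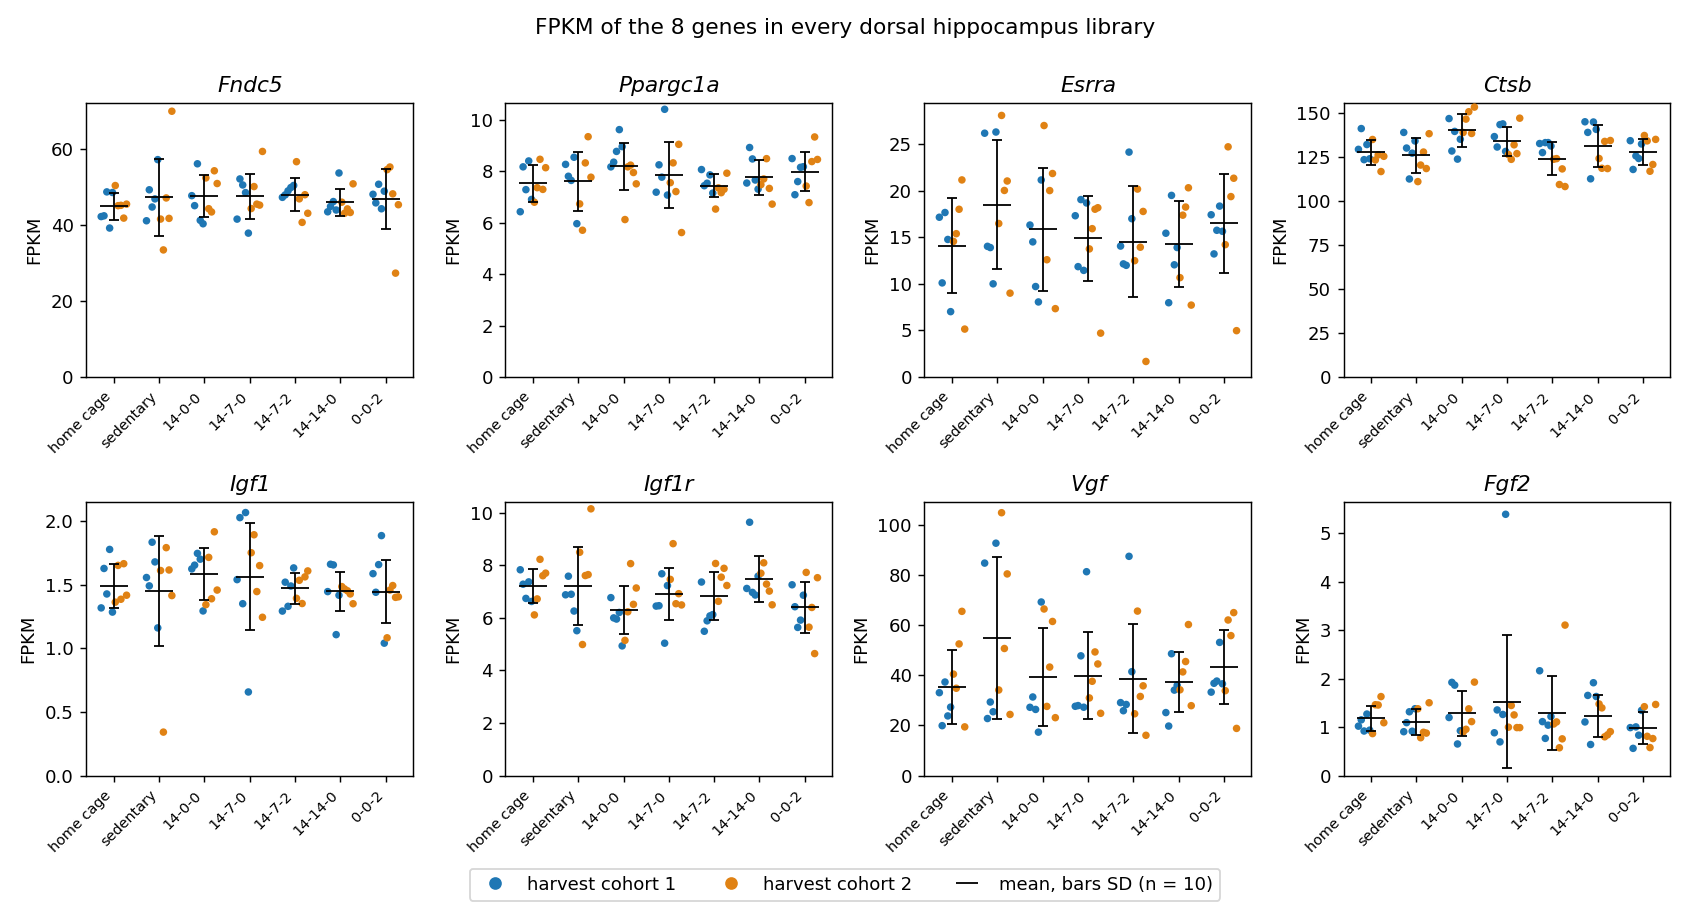
FPKM of each gene (vertical axes from 0) in every library, by group (horizontal axes); points are libraries coloured by harvest cohort, black bars the mean and SD of 10 libraries. *Ctsb* in 14-0-0 averages 140.4 FPKM against 126.1 in sedentary, and *Esrra* and *Vgf* spread widely within every group.

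Of the 8 members, 1 was called at an unadjusted p under 0.05 in 14-0-0 against sedentary, where 9.15% of all genes tested were called, 6.11% higher and 3.04% lower. In 14-7-0, 0 members were called, against 3.26% of genes (1.6% higher, 1.66% lower), and in 14-7-2 also 0, against 4.39% (2.07% higher, 2.32% lower). In 14-14-0, 0 members were called against 4.95% of genes (3.19% higher, 1.75% lower), in 0-0-2, 0 against 2.37% (1.14% higher, 1.23% lower), and in home cage, 0 against 2.3% (1.22% higher, 1.08% lower). All 6 comparisons share the same sedentary libraries. By limma, 0 of the 12994 genes had an adjusted p under 0.05 in any of them. Across the 7 groups, limma's F test called *Ctsb* (p = 0.00931, adjusted p = 0.444) among 7.63% of genes, and the next smallest p was that of *Igf1r* (0.0802). In 48 tests of whether a member's difference from sedentary differed between harvest cohorts, 0 passed by limma at an unadjusted p under 0.05. Over all genes, the share that passed was 2.79% for 14-0-0, 0.362% for 14-7-0 and 2.42% for 14-7-2. It was 2.03% for 14-14-0, 1.48% for 0-0-2 and 0.423% for home cage.

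**Figure D2:**
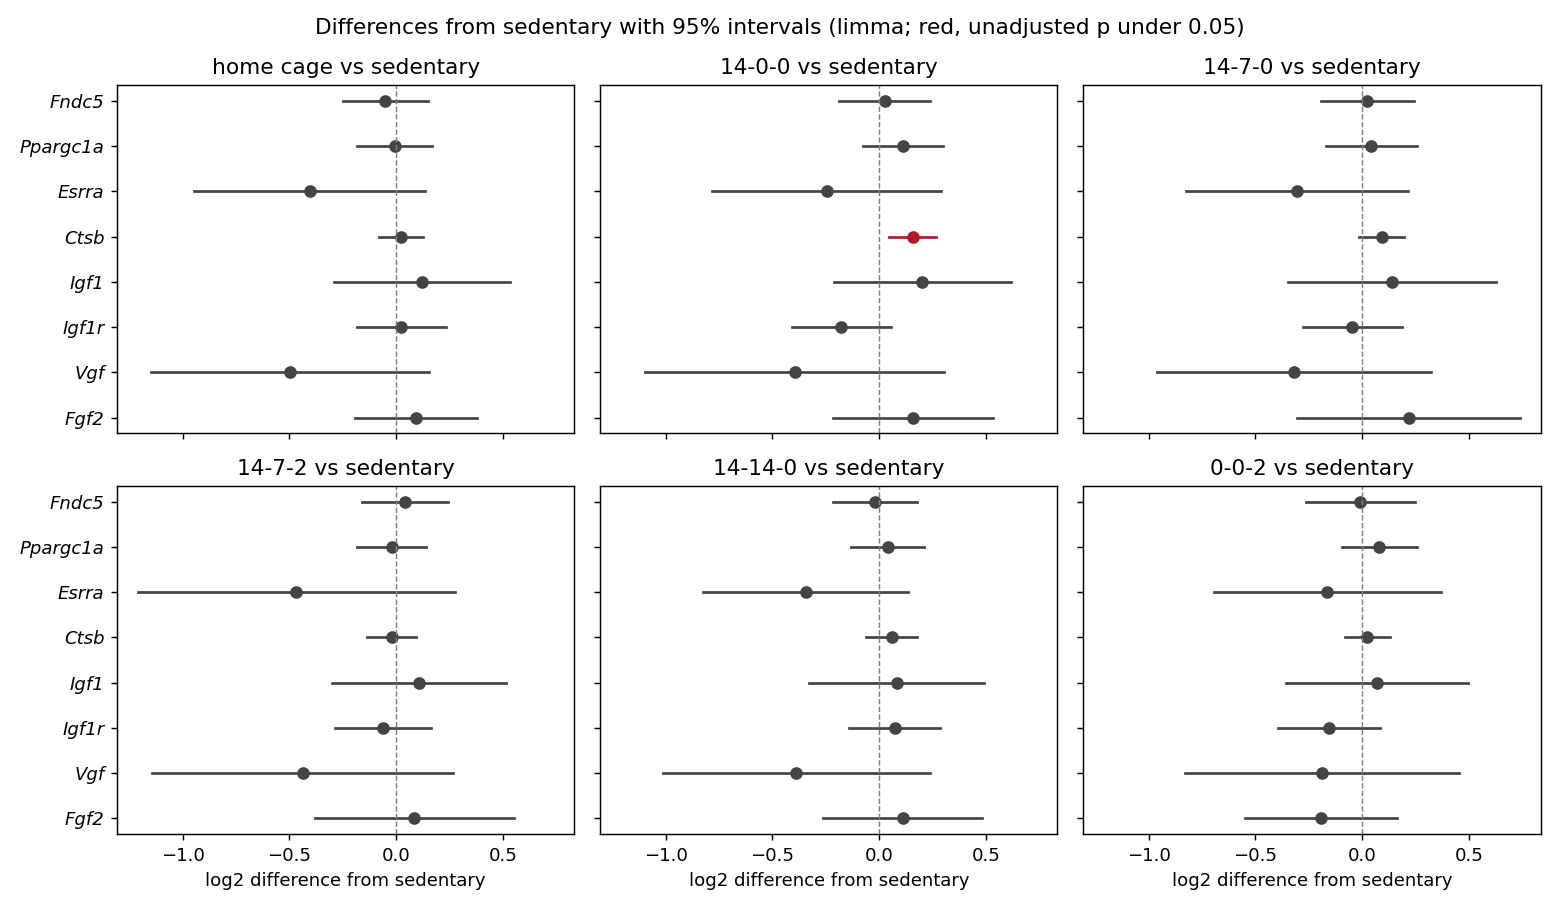
Difference of each group from sedentary on the log2(FPKM + 0.1) scale (horizontal axes) for each gene (vertical axes), with 95% intervals from limma; red marks an unadjusted p under 0.05. *Ctsb* in 14-0-0, at 0.16, is the one red interval, and the intervals of *Esrra* and *Vgf* reach furthest below 0.

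The transcript of the irisin precursor did not separate the groups. *Fndc5* ran from 33.4 to 69.9 FPKM in sedentary mice (median 45.8), from 40.3 to 56.1 in 14-0-0 (median 46.4) and from 40.7 to 56.6 in 14-7-2 (median 47.9). Its group means lay between 44.9 ± 3.55 FPKM in home cage and 47.9 ± 4.27 in 14-7-2 (SD, n = 10 each). Both extremes of all 70 libraries were single samples, 27.3 FPKM in 0-0-2 replicate 8 and 69.9 in sedentary replicate 9. On the log2 scale the differences from sedentary lay between -0.052 (home cage) and 0.042 (14-7-2), with 95% intervals that reached from -0.27 to 0.25 at the widest, both in 0-0-2. Its family members and the integrin chains of the irisin receptor gave 1 call in 14-0-0 and 2 in 14-14-0 among 6 genes tested, all higher, where 6.11% and 3.19% of all genes were called higher. All 12 choroid plexus markers were called higher in both groups too. *Itgav*, the αV integrin chain, was 0.26 higher in 14-0-0 (8.66 ± 0.861 FPKM against 7.26 ± 1.06, p = 0.00837, adjusted p = 0.354). The β1 chain *Itgb1* was 0.17 higher in 14-14-0 (p = 0.0435, adjusted p = 0.974). When each library's choroid plexus score (the mean centred log2 value of those 12 markers) was added to the model, *Itgav* in 14-0-0 stayed called (0.27, p = 0.0281), while in 14-14-0 *Itgb1* stood at 0.017 (p = 0.814) and *Itgav* at 0.18 (p = 0.105). 

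*Ppargc1a* was among the steadiest members. Libraries ran from 5.70 to 9.33 FPKM in sedentary (median 7.78), from 6.12 to 9.61 in 14-0-0 (median 8.19) and from 6.52 to 8.06 in 14-7-2 (median 7.39), so the ranges overlapped throughout. Group means lay between 7.42 ± 0.45 FPKM in 14-7-2 and 8.18 ± 0.929 in 14-0-0. The log2 differences from sedentary ran from -0.020 in 14-7-2 to 0.11 in 14-0-0 (p = 0.233), and no 95% interval went beyond -0.18 or 0.30. Among 13 family members and partners tested, 1 was lower in 14-0-0 and 1 lower in 14-14-0, where 3.04% and 1.75% of all genes were called lower. These were the PGC-1-related coactivator *Pprc1* (-0.13 in 14-0-0, p = 0.0243, adjusted p = 0.449) and the mitochondrial deacetylase *Sirt3* (-0.13 in 14-14-0, p = 0.0272, adjusted p = 0.974). Adjusted for the choroid plexus score neither was called, with *Pprc1* at -0.12 (p = 0.103) and *Sirt3* at -0.085 (p = 0.194). *Tfam*, of the same list, was called higher in 14-0-0 with that score (0.16, p = 0.0455) but not without it (0.10, p = 0.0965).

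Genes that PGC-1α and ERRα are known to activate in mitochondrial metabolism gave 4 calls of 15 tested in 14-0-0, all higher, where 6.11% of all genes were called higher. Their median log2 difference was 0.072, against 0.0083 over all genes tested. *Acadm*, a fatty acid dehydrogenase, measured 23.5 ± 2.84 FPKM against 20.2 ± 2.63 in sedentary (0.22, p = 0.00969, adjusted p = 0.364). *Ucp2*, an uncoupling protein, measured 22.8 ± 14.3 against 13.2 ± 3.73 (0.65, p = 0.0155, adjusted p = 0.399), and *Cycs*, cytochrome c, 72.1 ± 7.56 against 64.5 ± 5.84 (0.16, p = 0.0235, adjusted p = 0.445). *Cpt1a*, which admits fatty acids to mitochondria, had its smallest p in 14-14-0 (0.49, p = 0.00481, adjusted p = 0.974). Adjusted for the choroid plexus score, 1 of the 15 genes stayed called in 14-0-0, *Cycs* (0.23, p = 0.00706), while *Acadm* stood at 0.045 and *Ucp2* at -0.052. Other counts were 2 of 15 higher in 14-14-0, 1 in home cage and 0 in 14-7-0, 14-7-2 and 0-0-2. Of all genes, 3.19% were called higher in 14-14-0 and 1.22% in home cage. Under the same adjustment the counts in 14-14-0 and home cage were 0, and *Cpt1a* in 14-14-0 stood at 0.08 (p = 0.282).

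*Esrra* spread more within groups than between them. It ran from 9.0 to 28.1 FPKM in sedentary (median 18.2), from 7.34 to 27.0 in 14-0-0 (median 15.4) and from 4.71 to 19.0 in 14-7-0 (median 16.6). In 14-7-2 it ran from 1.67 to 24.1 (median 14.0), in 14-14-0 from 7.72 to 20.3 (median 14.7), in 0-0-2 from 4.98 to 24.7 (median 16.6) and in home cage from 5.15 to 21.1 (median 15.1). Every group overlapped every other, and the lowest library of all 7 groups was the one numbered 9 in the labels. Sedentary had the highest mean, 18.5 ± 6.89 FPKM, and home cage the lowest, 14.1 ± 5.11. All 6 differences from sedentary were below 0, from -0.16 in 0-0-2 to -0.47 in 14-7-2 (p = 0.204), and none was called. In the fit with the replicate number as a block, the differences of 14-7-0 (-0.30, p = 0.0304) and 14-14-0 (-0.34, p = 0.0312) were called. The intervals were wide, from -1.21 in 14-7-2 to 0.37 in 0-0-2 at their ends. Without sedentary replicate 6, which held the highest *Esrra* value of all 70 libraries, they ran from -0.086 (0-0-2) to -0.39 (14-7-2).

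*Ctsb* was called higher in 14-0-0, without passing adjustment. Sedentary libraries ran from 111 to 139 FPKM (median 128) and 14-0-0 libraries from 124 to 154 (median 139). The ranges overlapped, but 9 of 10 libraries of 14-0-0 lay above the sedentary median and 5 above the highest sedentary library. Means were 140.4 ± 9.49 FPKM in 14-0-0 and 126.1 ± 10.01 in sedentary (SD, n = 10 each), a log2 difference of 0.16 (standard error 0.0525, 95% interval 0.047 to 0.27, limma p = 0.0074, adjusted p = 0.342). Leaving out each of the 20 libraries in turn gave 0.14 to 0.18, all called. Within harvest cohort 1 the difference was 0.069 (p = 0.372) and within cohort 2 it was 0.24 (p = 0.00827), while the difference between cohorts did not pass its own test. Cyber-T on FPKM, the regularized test of the study's methods rewritten from its formula, gave p = 0.142. After adjustment for the choroid plexus score, the difference was 0.14 (p = 0.0473), and with the GC score described below it was 0.17 (p = 0.00456).

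In the other groups *Ctsb* was closer to sedentary. It ran from 124 to 147 FPKM in 14-7-0 (median 132), from 113 to 145 in 14-14-0 (median 134) and from 108 to 133 in 14-7-2 (median 126). In 0-0-2 it ran from 117 to 137 (median 129) and in home cage from 117 to 141 (median 126). These groups overlapped sedentary widely, with log2 differences from -0.020 in 14-7-2 to 0.090 in 14-7-0 (p = 0.0921) and 95% intervals within -0.14 to 0.20. Their means were 134 ± 8.35 FPKM in 14-7-0, 131 ± 11.9 in 14-14-0, 128 ± 7.67 in 0-0-2, 128 ± 6.95 in home cage and 124 ± 9.47 in 14-7-2, the lowest of the 7 groups.

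To follow the week without a wheel and the renewed running, 14-7-0 was compared with 14-0-0 and 14-7-2 with 14-7-0. The study cautions that the distance of initial running differed between its sequenced groups. It also reports that mice given the week of rest without renewed running had run more than mice given no rest. Neither comparison therefore isolates its step, and the part of running distance was not tested. From 14-0-0 to 14-7-0, 0 members were called, against 5.63% of all genes (2.03% higher, 3.6% lower), and *Ctsb* differed by -0.066 (95% interval -0.16 to 0.030, p = 0.166). From 14-7-0 to 14-7-2, 1 member was called, against 5.39% of genes (2.03% higher, 3.36% lower). *Ctsb* was lower after renewed running, at 124 ± 9.47 against 134 ± 8.35 FPKM (log2 difference -0.11, standard error 0.0485, p = 0.0341, adjusted p = 0.893). Of the 10 libraries of 14-7-2, 7 lay below the 14-7-0 median. This call was lost without 14-7-0 replicate 2, 3 or 9 and without 14-7-2 replicate 7, 8 or 9, and after adjustment for the choroid plexus score the difference was -0.10 (p = 0.0544). Within cohort 1 it was -0.052 (p = 0.322) and within cohort 2 -0.17 (p = 0.0347). Of 7 oligodendrocyte markers, 3 were also called lower in 14-7-2 than in 14-7-0, with a median of -0.32. So were 3 of 7 inhibitory neuron markers (median -0.15), 2 of 11 microglia, 1 of 8 astrocyte and 1 of 6 endothelial markers. Of 9 excitatory neuron markers, 1 was lower and 1 higher, while choroid plexus, meningeal and thalamus markers gave no call. The part of these markers in the difference was not tested. The other 7 members had 95% intervals that held 0 in both comparisons, the widest being that of *Esrra* from 14-7-0 to 14-7-2 (-0.91 to 0.59).

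Of 12 cathepsin and cystatin genes tested beside *Ctsb*, 5 were called higher and 0 lower in 14-0-0, where 6.11% of all genes were called higher, with a median log2 difference of 0.14 against 0.0083 over all genes. *Ctsl*, a lysosomal cysteine protease like cathepsin B, measured 59.3 ± 8.13 FPKM against 47.7 ± 6.05 (0.31, p = 0.00123, adjusted p = 0.279), and *Ctsd*, the main lysosomal aspartic protease, 246 ± 61.3 against 199 ± 21.8 (0.28, p = 0.0227, adjusted p = 0.437). *Ctso* (0.17, p = 0.00798), *Ctsc* (0.37, p = 0.0445) and *Ctsh* (0.22, p = 0.0493) were the others called. Among the remaining 7, *Ctss* (-0.10, p = 0.227), *Ctsk* (-0.11, p = 0.445), *Ctsf* (-0.028, p = 0.705) and *Cst3* (-0.089, p = 0.587) lay below sedentary. In each of the other 5 groups 0 of the 12 were called against sedentary, and 3 (*Ctsl*, *Ctsd* and *Ctsc*) were lower in 14-7-0 than in 14-0-0, while 1 was lower in 14-7-2 than in 14-7-0. Of all genes, 3.6% were called lower from 14-0-0 to 14-7-0 and 3.36% from 14-7-0 to 14-7-2. After adjustment for the choroid plexus score, 0 of the 12 were called in 14-0-0, and *Ctsl* stood at 0.12 and *Ctsd* at -0.0028. Within harvest cohort 1 alone 2 of the 12 were called higher, within cohort 2 alone 3, and without sedentary replicate 6 there were 6. The shares of all genes called in these fits are not given here, and the 6.11% above is not their share. *Fdft1*, the opposite-strand neighbour of *Ctsb* and a gene of sterol synthesis, measured 25.03 ± 2.11 FPKM in 14-0-0 and 24.0 ± 2.65 in sedentary.

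**Figure D3:**
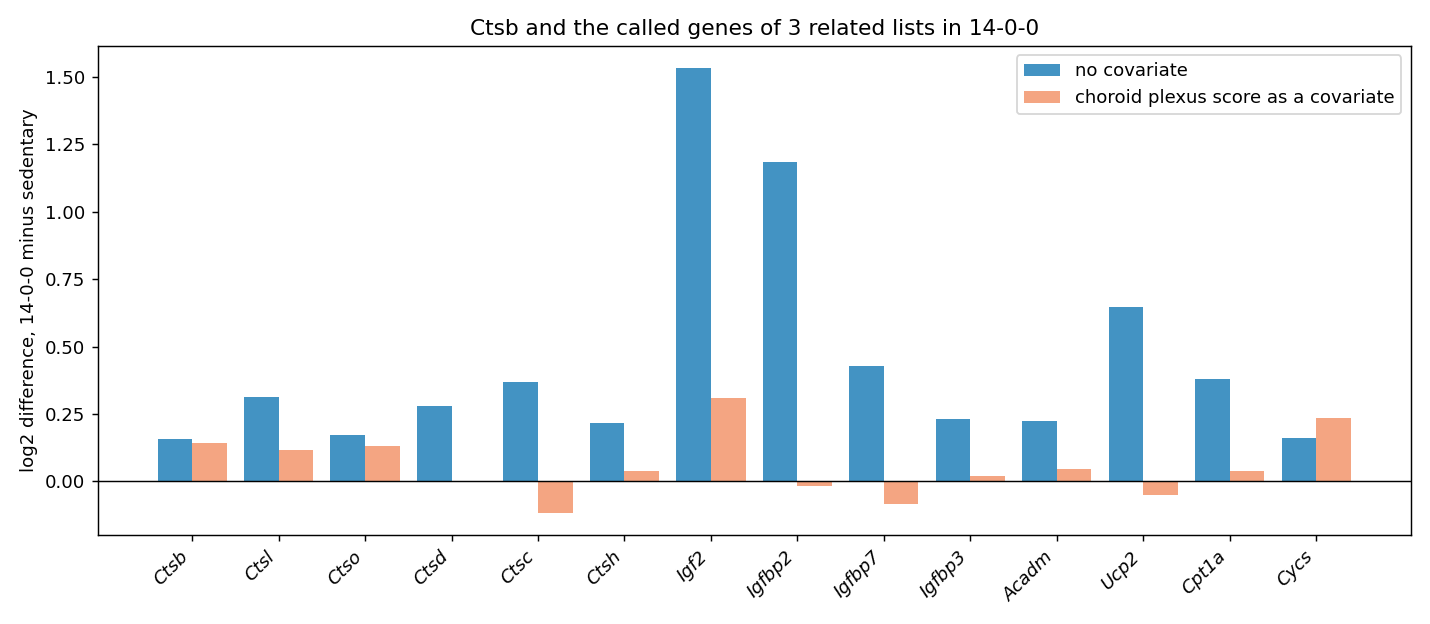
Log2 difference of 14-0-0 from sedentary (vertical axis) for *Ctsb*, the cathepsins, the IGF system genes and the PGC-1 and ERR targets called there (horizontal axis), without and with adjustment for each library's choroid plexus score. *Ctsb* goes from 0.16 to 0.14, while *Igf2* goes from 1.53 to 0.31.

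The IGF-1 ligand was low and did not separate the groups. *Igf1* ran from 0.342 to 1.84 FPKM in sedentary (median 1.59), from 1.30 to 1.92 in 14-0-0 (median 1.64), from 0.658 to 2.07 in 14-7-0 (median 1.60) and from 1.29 to 1.63 in 14-7-2 (median 1.51). The lowest value of all 70 libraries was that of sedentary replicate 6, and the lowest of 14-7-0 was that of replicate 4, the libraries that stood apart. Group means lay between 1.45 ± 0.25 FPKM in 0-0-2 and 1.59 ± 0.203 in 14-0-0. The log2 differences from sedentary were all above 0, up to 0.20 in 14-0-0 (p = 0.323), with 95% intervals from -0.36 (0-0-2) to 0.63 (14-7-0) at their ends. Without sedentary replicate 6 the 14-0-0 difference was 0.010, and the other 5 were below 0, down to -0.12 in 0-0-2 (p = 0.253).

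The receptor *Igf1r* had its lowest group mean in 14-0-0, without a call. It ran from 4.99 to 10.2 FPKM in sedentary (median 7.25), from 4.94 to 8.07 in 14-0-0 (median 6.22) and from 4.64 to 7.74 in 0-0-2 (median 6.41). Means were 7.21 ± 1.482 FPKM in sedentary, 6.30 ± 0.914 in 14-0-0, 6.41 ± 0.972 in 0-0-2 and 7.48 ± 0.888 in 14-14-0, the highest. The difference of 14-0-0 from sedentary was -0.18 (95% interval -0.41 to 0.053, p = 0.124). It was called without sedentary replicate 6 (-0.23, p = 0.0341) and with the GC score as a covariate (-0.23, p = 0.0483). In the remaining comparisons with sedentary the differences lay between -0.16 in 0-0-2 (p = 0.186) and 0.072 in 14-14-0.

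Around this pair, 4 of 14 other genes of the IGF system were called higher in 14-0-0, 4 in 14-14-0 and 4 in home cage, where 6.11%, 3.19% and 1.22% of all genes were called higher, and 0 in 14-7-0, 14-7-2 and 0-0-2. *Igf2*, the second ligand of the family, measured 49.96 ± 47.1 FPKM in 14-0-0 against 12.5 ± 4.35 in sedentary (1.53, p = 0.00109, adjusted p = 0.279). The binding proteins *Igfbp2* (1.37, p = 0.00791), *Igfbp7* (0.72, p = 0.00605) and *Igfbp3* (0.42, p = 0.0138) were higher in 14-14-0, with adjusted p = 0.974 for each. *Igf2* and *Igfbp2* are known to be made in choroid plexus, and the choroid plexus score averaged 1.40 in 14-0-0, 1.31 in 14-14-0 and 0.312 in home cage, against -1.18 in sedentary. After adjustment for that score 0 of the 4 genes stayed called in 14-0-0, where *Igf2* stood at 0.31 (p = 0.162) and *Igfbp6*, not called before, at 0.96 (p = 0.0104), and 0 in 14-14-0. In home cage *Igfbp5* stayed called (0.39 without the score, 0.43 with it, p = 0.018), and *Irs1* stood at 0.19 (p = 0.0529).

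*Vgf* had the largest median coefficient of variation within groups of the 8 members. It ran from 22.7 to 105 FPKM in sedentary (median 42.4), from 17.3 to 69.3 in 14-0-0 (median 29.5) and from 24.8 to 81.3 in 14-7-0 (median 34.3). In 14-7-2 it ran from 16.05 to 87.5 (median 30.3), in 14-14-0 from 19.7 to 60.3 (median 35.1), in 0-0-2 from 18.8 to 65.0 (median 37.3) and in home cage from 19.4 to 65.5 (median 33.9). All groups overlapped, and sedentary had both the highest mean, 55.0 ± 32.3 FPKM, and the highest single library, replicate 6. The lowest mean was that of home cage, 35.4 ± 14.7 FPKM. Differences from sedentary lay between -0.19 in 0-0-2 and -0.50 in home cage (p = 0.128, and p = 0.0432 with the replicate block), none called without the block, with 95% intervals from -1.15 (home cage) to 0.46 (0-0-2). Without sedentary replicate 6 they lay between -0.058 (0-0-2) and -0.37 (home cage). Among 10 granin and peptide processing genes, 2 were called higher in 14-0-0, 1 in 14-7-0 and 1 in 0-0-2. Over all genes tested, 6.11%, 1.6% and 1.14% were called higher in these groups. The first 2 were *Scg2*, another precursor of secreted peptides (117 ± 12.1 FPKM against 101.3 ± 14.7, 0.22, p = 0.0133, adjusted p = 0.392), and *Pam*, which amidates peptides (0.15, p = 0.0164, adjusted p = 0.4). *Scg3*, a granin of the regulated secretory route, was 0.13 higher in 14-7-0 (p = 0.0238, adjusted p = 0.968). With the choroid plexus score *Scg2* (0.24, p = 0.0292) and *Pam* (0.16, p = 0.043) stayed called in 14-0-0. *Scg3* was then called in 14-0-0 (0.165, p = 0.01) and in 14-7-0 (0.13, p = 0.027). *Scg2*, the gene called in 0-0-2 (0.18, p = 0.0322), stood there at 0.17 (p = 0.058) with the score.

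*Fgf2* was the least abundant member. It ran from 0.779 to 1.5 FPKM in sedentary (median 1.00), from 0.65 to 1.93 in 14-0-0 (median 1.15) and from 0.693 to 5.39 in 14-7-0 (median 1.12). The 5.39 FPKM came from 14-7-0 replicate 4, and the next highest value of all libraries was 3.10 in 14-7-2 replicate 9. Group means lay between 0.975 ± 0.333 FPKM in 0-0-2 and 1.52 ± 1.38 in 14-7-0. The log2 differences from sedentary lay between -0.19 in 0-0-2 (p = 0.272) and 0.22 in 14-7-0 (p = 0.396), with 95% intervals from -0.55 to 0.74, and without replicate 4 the 14-7-0 value was -0.0061. *Nudt6*, which overlaps it on the other strand, was more abundant, at 3.80 ± 0.587 FPKM in sedentary and 4.21 ± 0.535 in 14-0-0. Of 16 other genes of the fibroblast growth factor system, 3 were called lower in 14-7-2, where 2.32% of all genes were called lower. These were *Spry4*, an inhibitor of receptor signalling (-0.32, p = 0.0057), *Fgfrl1*, a receptor without a kinase domain (-0.21, p = 0.0245), and the receptor *Fgfr2* (-0.28, p = 0.0431), with adjusted p = 0.847 each. *Fgfr2* did not keep its call without sedentary replicate 6 (p = 0.0818) or with the GC score (p = 0.0739). With the choroid plexus score the 3 genes stayed called in 14-7-2, *Fgfr2* at -0.33 (p = 0.0255). With that score *Fgfr2* was also called lower in 14-0-0 (-0.37, p = 0.0291) and 0-0-2 (-0.355, p = 0.0233). Without the score, the list gave 1 lower call each in 14-0-0 and 14-7-0, both of *Spry4*, and 0 in the other 3 groups. Of all genes, 3.04% were called lower in 14-0-0 and 1.66% in 14-7-0. Adjusted for the score, *Spry4* stood at -0.18 (p = 0.191) in 14-0-0 and -0.285 (p = 0.0261) in 14-7-0.

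Of 14 other circulating or brain factors linked to exercise, 12 are listed and 6 averaged at least 1 FPKM. *Gpld1*, a liver enzyme that cleaves lipid anchors, was 0.10 lower in 14-14-0 (14.4 ± 0.888 FPKM against 15.4 ± 0.955, p = 0.0352, adjusted p = 0.974), a call that was lost at a similar size without sedentary replicate 6 (-0.088, p = 0.0613), with the choroid plexus score (-0.083, p = 0.144) and with the GC score (-0.089, p = 0.0526). No other comparison with sedentary gave a call in the fit without covariates. With the choroid plexus score *Adipor2* was called lower in home cage (-0.25, p = 0.00296) and *Sepp1* in 14-7-2 (-0.205, p = 0.0291). Without that score they stood at -0.16 (p = 0.0514) and -0.17 (p = 0.0639).

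To learn which members vary together beyond the groups, the log2 values were centred within each group and compared over the 70 libraries, with 100000 permutations of libraries within groups and adjustment over 28 pairs. *Esrra* and *Vgf* were the closest pair, with Pearson's r = 0.792 and Spearman's rho = 0.888 (permutation p = 1e-05 for both, the smallest these permutations can give, adjusted p = 0.00028). Without the 2 libraries farthest in *Esrra*, 0-0-2 replicate 9 and 14-7-2 replicate 9, r was 0.808, and it was 0.802 within cohort 1 and 0.86 within cohort 2.

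The libraries also differed in how GC-rich genes fared as a whole. The GC score of a library, the mean centred log2 value of the 10% of genes richest in G and C minus that of the poorest 10%, ran with *Esrra* (r = 0.869, rho = 0.898) and with *Vgf* (r = 0.875, rho = 0.899), each with permutation p = 1e-05 and adjusted p = 4e-05 over 8 members. Without the 2 farthest libraries these were r = 0.836 and 0.87, and within cohorts r lay between 0.822 and 0.95. In all, 4 of the 8 members had an adjusted permutation p under 0.05. The others were *Igf1* (r = -0.371, adjusted p = 0.00597) and *Ppargc1a* (r = -0.349, adjusted p = 0.0102), which ran against the score. Within cohorts 1 and 2 their r was -0.588 and -0.203 for *Igf1*, and -0.536 and -0.182 for *Ppargc1a*. *Esrra* and *Vgf* transcripts are both 64.4% G and C, and those of the other 6 members 46.5% to 53.5%. After the GC score was removed by regression, the r of *Esrra* with *Vgf* was 0.134 (permutation p = 0.294). The GC score averaged 0.148 ± 0.438 in sedentary, the highest of the 7 groups, and with it as a covariate the 6 differences of *Esrra* from sedentary lay between -0.14 and 0.040 and those of *Vgf* between -0.16 and -0.0062.

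**Figure D4:**
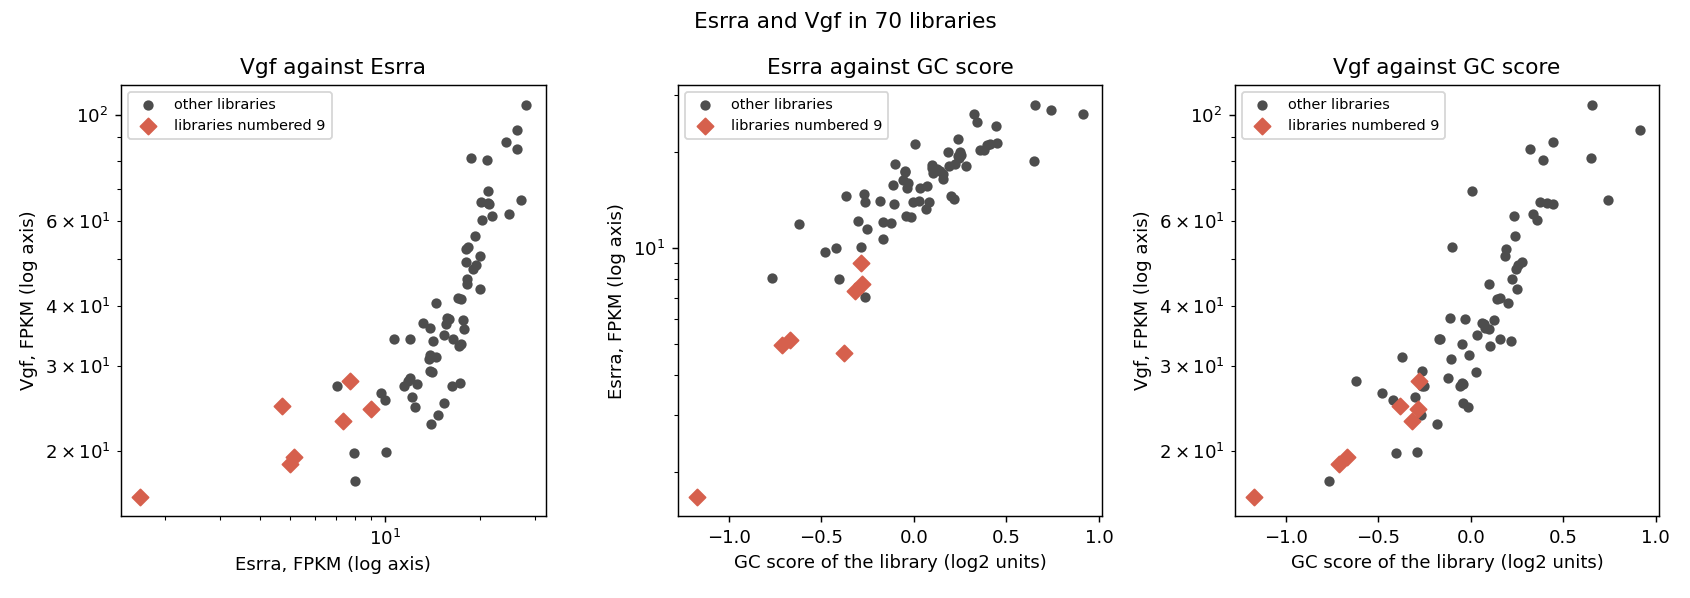
*Vgf* against *Esrra* in FPKM (log axes), and each against the GC score of the library in log2 units (horizontal axes), for 70 libraries; diamonds are the 7 libraries numbered 9 in the labels. Both genes are higher where the GC score is higher, and the diamonds hold the lowest *Esrra* value of every group.

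*Vgf* also ran with a score of immediate early genes, which neurons switch on with activity (r = 0.865, rho = 0.862, permutation p = 1e-05, adjusted p = 0.0001 over 80 pairs of members and marker scores). Without the 2 farthest libraries r was 0.877, and within cohorts 0.856 and 0.868. With the GC score removed this r was 0.632 (permutation p = 1e-05, adjusted p = 0.0004), and the r of *Vgf* with inhibitory neuron markers went from 0.752 to 0.42 (adjusted p = 0.0101). *Esrra* had r = 0.717 with the immediate early genes, and with the GC score removed this pair was not among those under an adjusted p of 0.05. The immediate early genes were themselves called lower than sedentary in 7 of 11 cases in 14-0-0 and in 14-7-2. There 3.04% and 2.32% of all genes were called lower. Lower calls numbered 5 of 11 in 14-14-0, 4 in 14-7-0 and 3 in 0-0-2, against 1.75%, 1.66% and 1.23% of all genes. In home cage 0 were called lower and 1 higher. In the limma fit without covariates, *Vgf* was called in none of these groups.

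A second pair was *Ppargc1a* with *Igf1* (r = 0.514, rho = 0.474, permutation p = 0.00035 and 0.00011, adjusted p = 0.0049 and 0.00154), with r = 0.492 without the 2 farthest libraries, 0.478 within cohort 1 and 0.533 within cohort 2. With the GC score removed r was 0.441. *Fndc5* and *Ctsb* varied together more weakly (r = 0.386, rho = 0.379, permutation p = 0.00094 and 0.00149, adjusted p = 0.00877 and 0.0139), with r = 0.356 without the 2 farthest libraries. This relation was uneven between cohorts, with r = 0.182 in cohort 1 and 0.547 in cohort 2. *Vgf* ran against *Igf1r* (r = -0.352, rho = -0.286, permutation p = 0.00792 and 0.0244, adjusted p = 0.0461 and 0.114) and against *Igf1* (r = -0.327, rho = -0.213, permutation p = 0.00823 and 0.0845, adjusted p = 0.0461 and 0.219). Without the 2 farthest libraries, sedentary replicate 6 being one of them in both cases, r was -0.262 and -0.133.

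Among cell type scores, *Ctsb* ran with oligodendrocyte markers (r = 0.433, rho = 0.478, permutation p = 0.00038 and 6e-05, adjusted p = 0.00253 and 0.000533), with r = 0.408 without the 2 farthest libraries, 0.498 in cohort 1 and 0.357 in cohort 2. *Igf1r* ran against inhibitory neuron markers (r = -0.556, rho = -0.514, permutation p = 1e-05 and 3e-05, adjusted p = 0.0001 and 0.000343), with r = -0.549 without the 2 farthest libraries, -0.525 in cohort 1 and -0.612 in cohort 2. *Ppargc1a* ran against microglia markers (r = -0.41, rho = -0.396, permutation p = 0.00036 and 0.00084, adjusted p = 0.00253 and 0.00611), with r = -0.482 without the 2 farthest libraries, -0.595 in cohort 1 and -0.375 in cohort 2. With the GC score itself, r was -0.349 for *Ppargc1a* (adjusted permutation p = 0.0102) and -0.219 for *Igf1r* (adjusted permutation p = 0.155). The r of these cell type pairs with the GC score removed is not given here. *Fndc5* ran against markers of meninges and fibroblasts (r = -0.442, rho = -0.384, permutation p = 0.00074 and 0.0016, adjusted p = 0.00423 and 0.0107). Without the 2 farthest libraries, 0-0-2 replicate 8 and sedentary replicate 9, this last r was -0.268. Of the 80 pairs, 16 had an adjusted p under 0.05, of which 10 belonged to *Esrra* and *Vgf*, and *Fgf2* had none.

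The genes most like each member in their pattern over 68 libraries, by Pearson's r of centred log2 values without the 2 libraries that stood apart, are given as a description. *Esrra* was closest to *Kifc3* (0.974), *Lmna* (0.974) and *Mib2* (0.969), and *Vgf* to *Scrt1*, *Tpgs1* and *Snrpa* (0.943 each), whose transcripts are 56.9% to 64.2% G and C over both sets. *Ppargc1a* was closest to *Ttc39b* (0.772), *Erbb4* (0.765) and *Scn1a* (0.764), and *Fndc5* to *Syndig1* (0.858), *Capzb* (0.816) and *Serpina3n* (0.801). *Ctsb* was closest to *P4hb* (0.76), *Dpcd* (0.743) and *Mesdc2* (0.708), of which *P4hb* codes for a protein disulfide isomerase of the endoplasmic reticulum. Among the genes closest to *Igf1* were *Hapln1* (0.713) and *Usp45* (0.672), and *Igf1r* was closest to *Map3k5* (0.764), *Clmn* (0.759) and *Mib1* (0.755). *Fgf2* had no close match, its highest values being 0.51 with *Map3k19*, 0.508 with *Ctnnd1* and 0.503 with *Nqo2*.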

How the data were processed

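The 70 libraries of mouse dorsal hippocampus RNA were grouped by the titles, exercise parameters and OLM field of the labels. The labels name TruSeq, Bowtie, Cuffnorm and mm10, and the study's methods add ELAND v2e and the Tuxedo protocol for single-read sequencing. The authors deposited FPKM for 24346 genes, scaled by transcript length and library, without counts, and read totals in the study's supplement could not be tied to the libraries and were not used here. A composition shift in 1 library can move other genes.

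The 12994 genes with a mean of 1 FPKM or more were tested on log2(FPKM + 0.1) with limma 3.58.1 in R 4.3.3 (moderated, trend, two-sided), on the 20 libraries of a comparison without covariates. A call was an unadjusted p under 0.05, the study's criterion, with Benjamini-Hochberg adjustment over all genes tested beside it. Fold changes on this scale understate those of low genes, and p-values measure the spread between libraries labelled as replicates. Correlations used NumPy 2.4.6 under Python 3.11.15. The fits and correlations were tested on simulated data.

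Members, lists and tests were chosen with earlier results of these data known. Named genes were all members, up to 4 genes of each of 8 pathway lists by smallest p against sedentary, and the 3 genes most like each member, of which 1 is not reported here. *Ctsh*, *Ctss*, *Ctsk*, *Ctsf*, *Cst3*, *Igfbp5*, *Igfbp6*, *Irs1*, *Tfam*, *Adipor2* and *Sepp1* were named after their values were seen. Alternatives were a pseudocount of 1, a minimum mean of 0.1 FPKM, median ratio scaling, a joint fit, harvest cohort as a covariate, each cohort alone, a replicate block, Cyber-T (window of 101 genes, 10 prior degrees of freedom) and leaving out sedentary replicate 6 or 14-7-0 replicate 4. The GC score, choroid plexus score and further leave-one-out fits were added after seeing the data. GC content was known for 12519 of the genes tested (96.3%). RefSeq upstream windows were matched for 6 members, without *Vgf* and *Ctsb*.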

Additional observations from a re-analysis of the deposited data

Results flagged for a closer look

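In each of 56 sets of 10 libraries (8 genes in 7 groups), the highest and the lowest library were examined for a gap to the nearest other library that is large against the range of the group (Dixon's criterion). Chance flags about 1 in 20 such groups, or 2.8 of 56, and 6 were found. They were *Fndc5* in 0-0-2 replicate 8 (27.3 FPKM, the lowest of its group), *Esrra* in 14-7-0 replicate 9 (4.71 FPKM, the lowest), *Igf1* in sedentary replicate 6 (0.342 FPKM, the lowest), *Igf1r* in 14-14-0 replicate 1 (9.65 FPKM, the highest), and *Vgf* (81.3 FPKM) and *Fgf2* (5.39 FPKM) in 14-7-0 replicate 4, the highest of theirs.

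Other values of these libraries are given beside them. 0-0-2 replicate 8 had the highest summed level of 10 meningeal and fibroblast markers of its group, 211.3 FPKM against a group median of 37.32. 14-14-0 replicate 1 had the highest choroid plexus marker sum of its group, 21900 FPKM against a median of 2121. 14-7-0 replicate 4 listed 10279 genes at 0 and had a GC score of 0.6503. Their part in the values above was not tested.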

How the results depend on the processing

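No value changed direction while called. Of 776 differences of members recomputed under the alternatives, 66 uncalled values changed sign and 14 changed side of the threshold. The F tests, the cohort tests and the further leave-one-out fits are not among these values. Against 1 member called in 14-0-0, Cyber-T and harvest cohort 1 alone gave 0, while leaving out sedentary replicate 6 and adding the GC score each gave 2, *Igf1r* being the second. Leaving out each library gave 1 to 2 calls there, and 0 to 1 in 14-7-2 against 14-7-0, where Cyber-T, cohort 1 alone and the choroid plexus score gave 0. In 14-7-0 against 14-0-0, cohort 2 alone gave 1 (*Ctsb*, -0.15, p = 0.0358) against 0. Cyber-T gave 1 call in 14-14-0 (*Vgf*, p = 0.0407) and 2 in home cage (*Esrra* and *Vgf*) against 0. The F test gave 2 members in place of 1 with median ratio scaling and without sedentary replicate 6, *Igf1r* being the second, and without that library 2 cohort differences passed in place of 0, both of *Igf1r* (14-14-0, p = 0.0221; home cage, p = 0.0399). The causes of these changes were not tested.

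The labels do not say what a shared replicate number marks. Deviations from the group means of same-numbered libraries correlated over 0.1 in at most 7 of 10 pairs of a comparison, so the numbers were not taken as pairs. As a hint from the data, for 14-0-0 and sedentary the median r was 0.134 (-0.0187 to 0.355), against -0.00339 for other numbers of the same cohort, 3 of 10 libraries correlated best with their own number, and number 9 held the lowest *Esrra* value in 7 of 7 groups. In the fit with a replicate block, 1 member was called in 14-7-0 (*Esrra*, p = 0.0304), 14-14-0 (*Esrra*, p = 0.0312) and home cage (*Vgf*, p = 0.0432) in place of 0, and other counts were the same. Without counts per library, the depth that limits *Igf1* and *Fgf2*, the lowest members, is not given here.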
